A study of Mus musculus with 10 samples.

Results

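The 10 genes described here are established markers of megakaryocytes and platelets: Gp1bb, Gp5, Gp9, Itga2b, Pf4, Ppbp, Vwf, Thbs1, Selp and Tubb1. They were chosen by symbol, and all 10 were found among the 16771 genes listed in each deposited table. Marrow RNA of C57BL/6 mice was sequenced in 10 libraries, with 2 biological replicates in each of 5 groups. The double mutant group was HSPC from Npm1flox-cA/+;Flt3ITD/+;Mx1-Cre+ mice, which carry a mutant Npm1 allele and a Flt3 internal tandem duplication. The Flt3-ITD group was HSPC from Flt3ITD/+ mice, and the Npm1c group was HSPC from Npm1flox-cA/+;Mx1-Cre+ mice. WT neutrophils and WT HSPC came from wild-type mice. No Cre is named for the Flt3-ITD and WT groups. HSPC, haematopoietic stem and progenitor cells, here means the fraction of marrow left once red cells were lysed and cells bearing mature lineage markers were taken out on magnetic beads, and neutrophils were taken with a magnetic isolation kit. Mx1-Cre acts in many tissues once interferon signalling induces it, so the Npm1 allele was not restricted to blood cells by design. Induction, age and sex are not given in the labels, and gene totals do not separate the mutant from the normal allele, so Npm1 and Flt3 levels do not check the genotypes.

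Megakaryocytes are the large polyploid marrow cells that shed platelets, the small cell fragments that stop bleeding. They arise from progenitors shared with the red cell lineage, under transcription factors that include GATA1, FLI1, RUNX1 and NFE2. As they mature they build a receptor for von Willebrand factor (glycoproteins Ib, IX and V), a receptor for fibrinogen (integrin alphaIIb beta3), alpha granules filled with chemokines and adhesive proteins, and a marginal band of microtubules. Platelet RNA is inherited from the megakaryocyte, so platelets carried along with marrow cells bring the same transcripts. In bulk RNA, fewer cells of a type and less RNA per cell cannot be told apart, which holds for every level given here.

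The expression unit is RPKM, a read number divided by the length of the gene and the size of the library. Library sizes ran from 40783015 to 57824373 reads, of which the listed genes held 60.9% to 81.3%. The lowest read number of any of the 10 genes was 27, for Selp in double mutant replicate 1 (exact Poisson 95% interval 17.8 to 39.3, counting error only). The lowest read numbers of Gp9, Gp1bb and Tubb1 were 132, 140 and 207, and those of the other 6 genes 388 or more. Kit, a receptor of immature blood cells, stood at 8.70 and 8.65 RPKM in double mutant HSPC, 12.9 and 10.9 in Flt3-ITD HSPC, 14.4 and 14.2 in Npm1c HSPC, 1.86 and 1.93 in WT neutrophils, and 14.9 and 14.6 in WT HSPC. Summed over 15 neutrophil markers, WT neutrophils held 100400 to 100700 RPKM and WT HSPC 60.4 to 79.2, so both labels fit their cells. In the Npm1c group that sum was 90.5 RPKM in replicate 1 and 419 in replicate 2. Y-linked genes stood at 13.4 RPKM in Flt3-ITD replicate 1 and 12.5 in Npm1c replicate 2, and at 0.0081 or less in the other 8 libraries.

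RefSeq promoter windows, 250 bases before to 50 after the start site on GRCm38.p6, were at hand for 8 of the 10 genes, Vwf and Thbs1 not among them. They were searched on both strands for letters known to be bound by GATA factors, spelled AGATAA, with the variants AGATAG and also TGATAA and finally TGATAG, and by ETS factors such as FLI1, spelled AGGAAG with the variant CGGAAG. No GATA and ETS match overlapped. GATA letters stood in 3 of the 8 windows, against 29.8% of 32851 mouse windows of the same length. ETS letters stood in 7 of the 8, against 46.5%, and both together in 3 of the 8, against 12.6%. These are matches of letters, not shown binding sites. The windows printed are Gp5, which has 3 GATA matches, Itga2b, which has 2 ETS matches, and the neighbours Pf4 and Ppbp, whose levels parted between groups. Capitals mark the matches, and each sequence runs along the strand of its gene. They lie at chr16:30310732-30311031 (minus strand) for Gp5, chr11:102469834-102470133 (minus strand) for Itga2b, chr5:90772185-90772484 (plus strand) for Pf4 and chr5:90768268-90768567 (plus strand) for Ppbp.
Gp5: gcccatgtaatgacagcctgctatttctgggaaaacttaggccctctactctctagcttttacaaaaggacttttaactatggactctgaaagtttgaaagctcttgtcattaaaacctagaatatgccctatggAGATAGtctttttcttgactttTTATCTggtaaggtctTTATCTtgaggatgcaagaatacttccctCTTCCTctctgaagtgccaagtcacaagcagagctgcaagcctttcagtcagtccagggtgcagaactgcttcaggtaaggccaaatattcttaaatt
Itga2b: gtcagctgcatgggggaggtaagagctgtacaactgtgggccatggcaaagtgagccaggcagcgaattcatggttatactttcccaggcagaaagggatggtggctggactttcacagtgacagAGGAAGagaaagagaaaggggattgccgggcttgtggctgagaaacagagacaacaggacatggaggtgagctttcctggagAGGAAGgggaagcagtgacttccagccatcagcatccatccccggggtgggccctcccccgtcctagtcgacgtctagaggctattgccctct
Pf4: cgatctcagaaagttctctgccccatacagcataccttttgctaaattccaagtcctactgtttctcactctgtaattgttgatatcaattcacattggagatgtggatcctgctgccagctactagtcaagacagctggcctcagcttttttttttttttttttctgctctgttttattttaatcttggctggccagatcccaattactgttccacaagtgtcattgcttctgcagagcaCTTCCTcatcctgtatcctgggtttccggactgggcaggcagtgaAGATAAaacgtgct
Ppbp: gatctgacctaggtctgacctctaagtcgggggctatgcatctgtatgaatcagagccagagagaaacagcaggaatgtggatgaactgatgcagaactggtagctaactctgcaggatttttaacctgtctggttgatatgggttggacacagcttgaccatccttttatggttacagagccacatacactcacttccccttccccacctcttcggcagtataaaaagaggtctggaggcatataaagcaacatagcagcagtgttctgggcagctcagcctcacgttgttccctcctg
In the Gp5 window the GATA matches began 115, 93 and 77 bases before the start site and the ETS match 48 before it. Pf4 had an ETS match 9 bases before the start site and a GATA match 36 bases after it. The Ppbp window held neither motif, so these letters in this window are not shared by all 10 genes.

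Levels in every library are given by the role of each gene, before any test. Gp5, Gp9 and Gp1bb encode 3 of the 4 chains of the von Willebrand factor receptor that tethers platelets to damaged vessel walls. Gp5 (chromosome 16, 30307685 to 30310779, GRCm38), which encodes glycoprotein V, read 3.98 and 4.22 RPKM in double mutant HSPC, 14.6 and 15.9 in Flt3-ITD HSPC, 21.5 and 18.4 in Npm1c HSPC, 8.88 and 8.50 in WT neutrophils, and 22.5 and 24.4 in WT HSPC. No neighbouring groups overlapped in the order of Gp5 levels, with WT HSPC highest and double mutant HSPC lowest. Gp9 (chromosome 6, 87778072 to 87779768), encoding glycoprotein IX, read 3.38 and 3.69 RPKM in double mutant HSPC, 9.72 and 8.13 in Flt3-ITD HSPC, 11.1 and 7.62 in Npm1c HSPC, 9.23 and 8.02 in WT neutrophils, and 13.9 and 15.8 in WT HSPC. Both double mutant libraries lay below all 8 others, both WT HSPC libraries above all others, and the 3 groups between them overlapped. Gp1bb (chromosome 16, 18620317 to 18622403), the beta chain of glycoprotein Ib, read 1.49 and 1.16 RPKM in double mutant HSPC, 2.92 and 2.56 in Flt3-ITD HSPC, 4.84 and 2.65 in Npm1c HSPC, 2.63 and 2.61 in WT neutrophils, and 4.18 and 4.61 in WT HSPC. Here the double mutant libraries were again lowest, but Npm1c replicate 1 was above both WT HSPC libraries. Gp1bb overlaps Sept5 on the same strand, so its reads cannot be told apart from those of Sept5 with certainty.

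Itga2b (chromosome 11, 102453297 to 102470122) encodes the alphaIIb chain of the fibrinogen receptor, CD41, and appears on megakaryocytes and on some early progenitors. It read 2.09 and 2.20 RPKM in double mutant HSPC, 10.2 and 9.0 in Flt3-ITD HSPC, 14.0 and 9.87 in Npm1c HSPC, 7.32 and 7.27 in WT neutrophils, and 17.4 and 17.2 in WT HSPC. Its order was that of Gp5, and only the Npm1c and Flt3-ITD libraries overlapped.

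Pf4 and Ppbp, which encode the alpha granule chemokines platelet factor 4 and platelet basic protein, lie 2371 bases apart on chromosome 5. Pf4 (90772435 to 90773383) read 23.5 and 22.9 RPKM in double mutant HSPC, 38.5 and 37.9 in Flt3-ITD HSPC, 69.2 and 40.4 in Npm1c HSPC, 19.1 and 21.1 in WT neutrophils, and 69.4 and 73.3 in WT HSPC. It was the only gene of the 10 whose lowest group was WT neutrophils. Ppbp (90768518 to 90770063) read 19.3 and 19.7 RPKM in double mutant HSPC, 92.8 and 71.0 in Flt3-ITD HSPC, 93.2 and 53.5 in Npm1c HSPC, 82.6 and 83.3 in WT neutrophils, and 132 and 135 in WT HSPC. For Ppbp the neutrophils lay within the ranges of both Flt3-ITD and Npm1c HSPC, and the double mutant libraries stood far below all the rest.

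Vwf and Thbs1 encode large adhesive proteins stored in alpha granules, von Willebrand factor and thrombospondin 1. Vwf (chromosome 6, 125546774 to 125686679), also made by endothelium and by platelet-biased stem cells, read 2.18 and 2.18 RPKM in double mutant HSPC, 3.40 and 3.19 in Flt3-ITD HSPC, 6.21 and 3.55 in Npm1c HSPC, 2.54 and 2.42 in WT neutrophils, and 6.33 and 6.44 in WT HSPC. Double mutant HSPC and neutrophils were close to each other in Vwf without overlapping. Thbs1 (chromosome 2, 118111876 to 118127133), which monocytes and other cells also make, read 11.6 and 11.5 RPKM in double mutant HSPC, 29.8 and 30.3 in Flt3-ITD HSPC, 20.6 and 13.8 in Npm1c HSPC, 92.7 and 95.4 in WT neutrophils, and 42.7 and 43.3 in WT HSPC. Thbs1 was the only gene of the 10 that was highest in neutrophils.

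Selp (chromosome 1, 164115264 to 164150026) encodes P-selectin, a granule membrane protein that activated platelets expose to bind leukocytes. It read 0.0889 and 0.115 RPKM in double mutant HSPC, 0.603 and 0.597 in Flt3-ITD HSPC, 1.14 and 0.561 in Npm1c HSPC, 1.53 and 1.64 in WT neutrophils, and 2.18 and 2.13 in WT HSPC. Tubb1 (chromosome 2, 174450695 to 174457882) encodes beta1-tubulin, the megakaryocyte isoform that forms the marginal band of platelets. Its level was 3.32 and 3.64 RPKM in double mutant HSPC, 32.7 and 36.0 in Flt3-ITD HSPC, 30.9 and 19.0 in Npm1c HSPC, 47.4 and 46.5 in WT neutrophils, and 64.6 and 67.8 in WT HSPC. These were the genes with the least left in double mutant HSPC, at 4.73% of the WT HSPC mean for Selp and 5.25% for Tubb1. The gene lengths behind the RPKM values were longer than the merged GENCODE exons for some genes, 2.01 times for Itga2b and 1.88 times for Pf4, so levels are compared within a gene and not between genes.

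**Figure D1:**
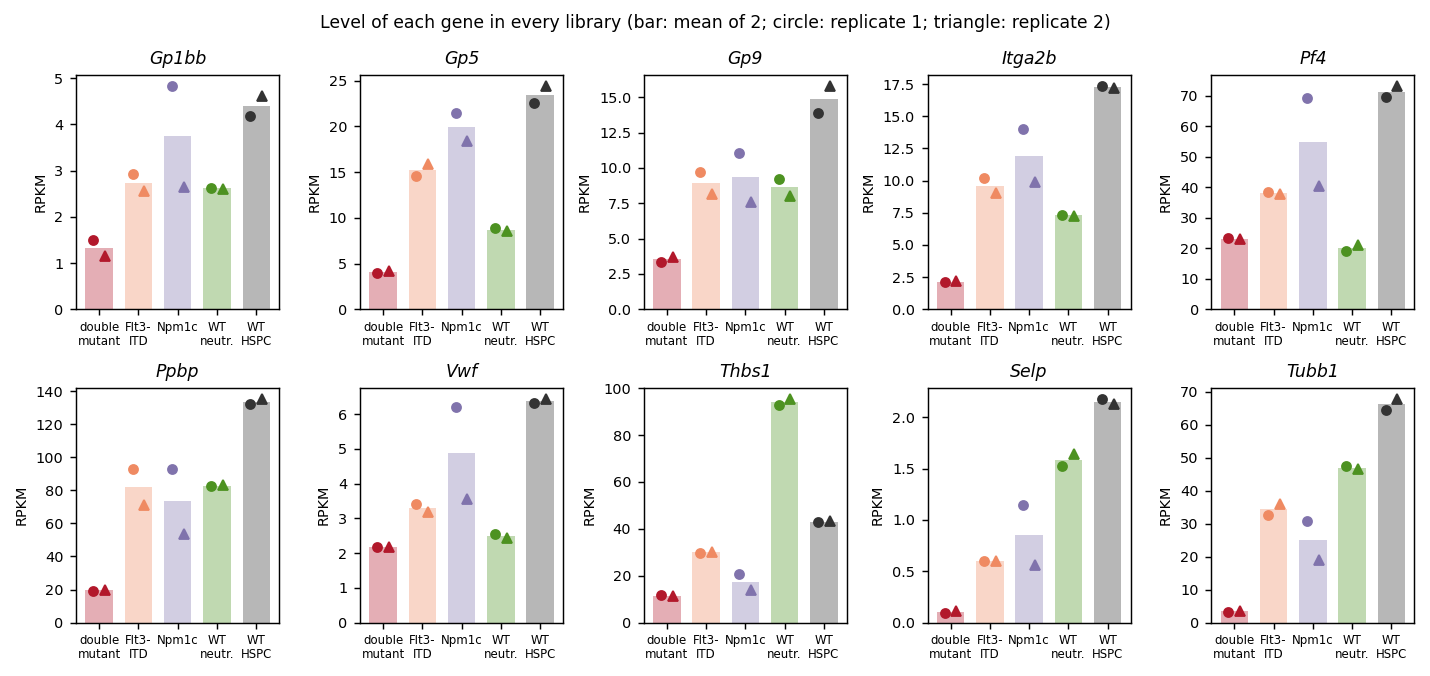
RPKM of each of the 10 genes (vertical axes, each from 0) in double mutant, Flt3-ITD and Npm1c HSPC, WT neutrophils and WT HSPC. Bars are means of 2 libraries, circles replicate 1 and triangles replicate 2. All 10 genes were lower in both double mutant libraries than in both WT HSPC libraries, as were 66.1% of tested genes, and Npm1c replicate 1 stood above replicate 2 for every gene.

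All 10 genes were low in double mutant HSPC. Levels stood at 4.73% to 34.1% of the WT HSPC mean, with a median of 20.6%, and the summed RPKM of the 10 genes was 70.8 and 71.3, against 376 and 390 in WT HSPC. Vwf, Pf4 and Gp1bb kept most, at 34.1%, 32.5% and 30.2%, and Gp9 and Thbs1 stood at 23.8% and 26.8%. Gp5, Ppbp and Itga2b were at 17.5%, 14.6% and 12.4%. All 10 genes fell at an adjusted p under 0.05 (limma on log2(RPKM + 0.5), Benjamini-Hochberg over 9702 tested genes), in a comparison where 58.9% of tested genes were called lower and 23.9% higher. The count was 10 under every scaling, with 40.3% (median of ratios) to 58.9% (deposited scale) of all tested genes called lower. No gene of the 10 lost its call under any other filter, pseudocount, model or left-out library tried.

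Since the median tested gene itself moved by -0.34 on the log2 scale between these groups, changes are given relative to it, while the adjusted p belongs to the change on the deposited scale. Tubb1 changed most, by -3.73 ± 0.20 (SE, adjusted p = 2.09e-06). Next came Itga2b at -2.41 ± 0.15 (adjusted p = 3.19e-06), Ppbp at -2.41 ± 0.24 (adjusted p = 3.25e-05) and Gp5 at -2.04 ± 0.09 (adjusted p = 6.54e-07). Selp changed by -1.80 ± 0.18 (adjusted p = 2.45e-05), a value that understates its RPKM ratio of 21.1 because 0.5 was added to low levels. Among HSPC libraries it reached the minimum for testing only in WT HSPC and Npm1c replicate 1, so it was tested mainly through the group where it is high. Gp9 changed by -1.59 and Thbs1 by -1.52. Pf4, Gp1bb and Vwf changed least, by -1.26, -1.09 and -1.02, with adjusted p-values of 2.84e-04, 7.69e-04 and 5.28e-04. The median over the 10 genes was -1.70. Even Vwf lay lower than all but 3.80% of tested genes, and Tubb1 lower than all but 0.0722%.

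Against each single mutant, the genes were also low in double mutant HSPC. In the comparison with Npm1c HSPC all 10 fell, where 43.0% of tested genes were called lower and 34.4% higher, with a median change of -1.13 relative to the median gene. Thbs1 moved least in it, by -0.44 (adjusted p = 0.016), and was no longer called when either double mutant library was left out. In the comparison with Flt3-ITD HSPC, 9 fell, where 48.8% were called lower and 28.6% higher, with a median change of -1.10. Vwf was the exception at -0.32 ± 0.20 (adjusted p = 0.0547), and it passed in some alternatives, among them those without Npm1c replicate 1 or 2. Pf4, at -0.53 (adjusted p = 0.0179), was not called under median-of-ratios scaling or without either double mutant library. Gp1bb, at -0.65 (adjusted p = 0.0122), was not called without double mutant replicate 2. On the log2(RPKM + 0.5) scale Tubb1 moved most in both comparisons, by -2.55 against Npm1c and -2.95 against Flt3-ITD HSPC. That scale understates the RPKM ratio of Selp, which was at 0.0889 and 0.115 RPKM in double mutant HSPC. These comparisons share the double mutant libraries with the one against WT HSPC.

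In Flt3-ITD HSPC the levels stood at 27.9% to 69.9% of the WT HSPC mean, with a median of 57.8%, and both libraries were below both WT HSPC libraries for all 10 genes, as they were for 57.1% of tested genes. On the deposited scale 8 of the 10 fell, where 31.3% of tested genes were called lower and 1.86% higher, and the median change was -0.63 relative to the median gene, which itself moved by -0.14. Selp changed most, by -1.13 ± 0.18 (adjusted p = 0.00477), followed by Tubb1 at -0.80 (adjusted p = 0.0137), Pf4 at -0.75 (adjusted p = 0.0204) and Vwf at -0.72 (adjusted p = 0.0199). Itga2b changed by -0.68 (adjusted p = 0.00897), Gp9 by -0.56 (adjusted p = 0.0204), Gp5 by -0.46 (adjusted p = 0.00512) and Thbs1 by -0.37 (adjusted p = 0.0437). Ppbp at -0.58 (adjusted p = 0.0588) and Gp1bb at -0.45 (adjusted p = 0.084) did not pass. Under median-of-ratios scaling 3 were called lower, Gp5, Itga2b and Selp, and the share of all tested genes called lower was 9.65%. Without either WT HSPC library only Gp5 and Selp kept their calls. Thbs1 also lost its call without any one of the Flt3-ITD or double mutant libraries. Without either Npm1c library Ppbp and Gp1bb passed as well. Shares of all tested genes in these fits are not given here. The directions were the same in every alternative.

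In Npm1c HSPC the share of the 10 genes called lower was near that of all tested genes. Levels stood at 37.7% to 85.2% of the WT HSPC mean, with a median of 65.9%, and 6 of the 10 fell on the deposited scale, where 58.1% of tested genes were called lower and 2.49% higher. The median tested gene moved by -0.26, and the 10 genes had a median of -0.34 relative to it. Tubb1 (-1.17 ± 0.20, adjusted p = 0.00166), Thbs1 (-1.06 ± 0.16, adjusted p = 0.00102) and Selp (-0.75 ± 0.18, adjusted p = 0.00379) were also called under median-of-ratios scaling. Ppbp (-0.66, adjusted p = 0.0157), Gp9 (-0.40, adjusted p = 0.0139) and Itga2b (-0.28, adjusted p = 0.0177) were called on the deposited scale but not under that scaling, where 20.1% of all tested genes were called lower. Gp5 (0.03, adjusted p = 0.0537) and Gp1bb (0.01, adjusted p = 0.359) stood at the median gene, and Vwf (-0.14, adjusted p = 0.123) and Pf4 (-0.17, adjusted p = 0.117) did not pass either. Single libraries decided much of this count, which rose without Npm1c replicate 1 and fell without either WT HSPC library. Shares of all tested genes in these fits are not given here. Gp5 also passed without either Flt3-ITD library.

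The Npm1c replicates differed from each other in the same direction for every gene. Replicate 1 was higher than replicate 2 for 10 of 10, by 1.17 to 2.03 times with a median of 1.67. The corresponding median ratio was 0.964 in double mutant HSPC, 1.04 in Flt3-ITD HSPC, 1.01 in WT neutrophils and 0.965 in WT HSPC. Summed RPKM was 273 in Npm1c replicate 1 and 169 in replicate 2. Replicate 2 also held the higher neutrophil marker sum (419 against 90.5 RPKM, 15 of 15 markers found) and the Y-linked reads, whose part in the difference was not tested.

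**Figure D2:**
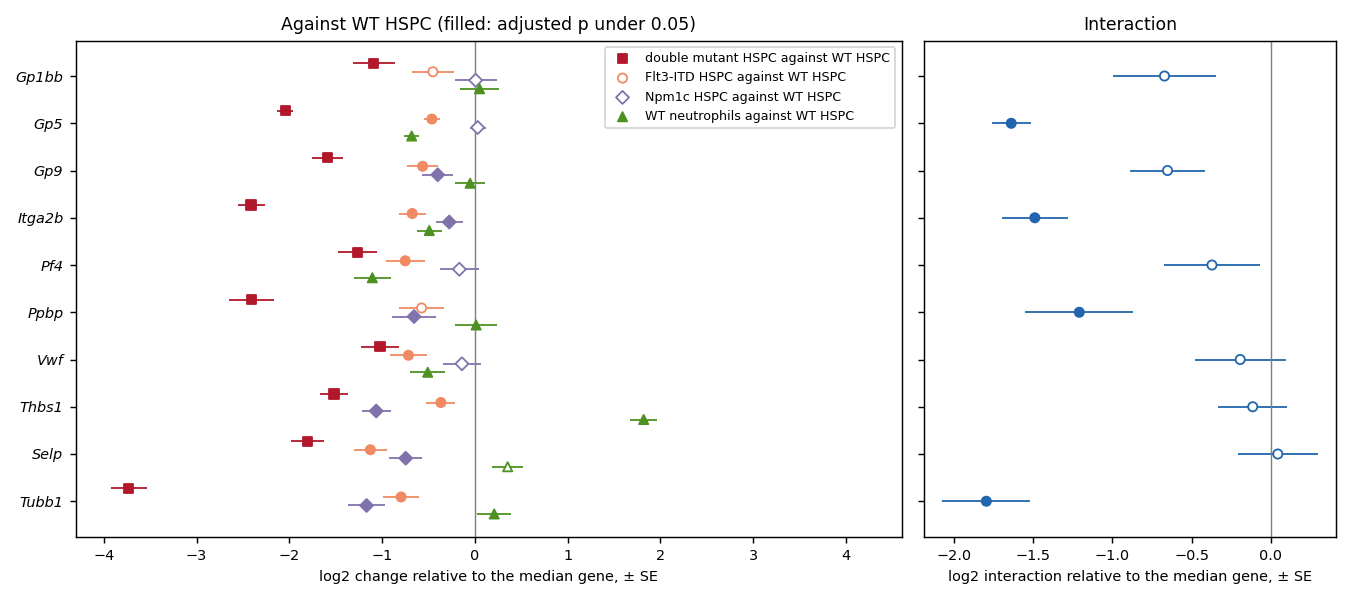
Left, log2 change of each gene against WT HSPC, relative to the median tested gene, with SE, for double mutant, Flt3-ITD and Npm1c HSPC and WT neutrophils. Right, the interaction on the same scale. Filled symbols had an adjusted p under 0.05 on the deposited scale. The double mutant points lie between -3.73 and -1.02, left of every single mutant point of the same gene.

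The interaction compares the change of double mutant HSPC with the sum of the Flt3-ITD and Npm1c changes on the log2 scale, so a negative value means a level below that sum. It was lower for 4 of the 10 genes, Tubb1, Gp5, Itga2b and Ppbp, where 27.6% of tested genes were called lower and 39.2% higher. Relative to the median gene, which moved by 0.09, the values were -1.79 ± 0.28 for Tubb1 (adjusted p = 0.0014), -1.64 ± 0.12 for Gp5 (adjusted p = 4.80e-05), -1.49 ± 0.21 for Itga2b (adjusted p = 8.88e-04) and -1.21 ± 0.34 for Ppbp (adjusted p = 0.0232). Gp1bb (-0.67, adjusted p = 0.151) and Gp9 (-0.65, adjusted p = 0.0734) did not pass on the deposited scale, though Gp9 did under median-of-ratios scaling (adjusted p = 0.0317). Pf4 (-0.37), Vwf (-0.19), Thbs1 (-0.12) and Selp (0.04) had adjusted p-values of 0.436 to 0.937. The Selp value depends on the 0.5 added to RPKM, because Selp was at 0.0889 and 0.115 RPKM in double mutant HSPC. With 0.1 added instead, it was negative. In RPKM, Selp stood at 4.73% of the WT HSPC mean in double mutant, 27.9% in Flt3-ITD and 39.5% in Npm1c HSPC. The value near 0 thus does not show that the Selp changes add up. Ppbp lost its call without either WT HSPC or either double mutant library. The choice of Npm1c library moved the calls most, and for Vwf and Thbs1 the sign depended on which of the 2 was left out. Shares of all tested genes in these fits are not given here. Gp5, Itga2b and Tubb1 were called in every alternative.

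WT neutrophils carried these transcripts too. Their levels stood at 28.1% to 219% of the WT HSPC mean, with a median of 58.8%, and the sum was 274 and 277 RPKM. On the deposited scale 8 genes were lower and Thbs1 higher, where 62.8% of tested genes were called lower and 28.4% higher (limma, 10174 genes tested). The median tested gene moved by -0.70, and relative to it the 10 genes had a median of -0.02. Thbs1 rose by 1.82 ± 0.15 relative to the median gene (adjusted p = 7.76e-05). Pf4 (-1.11, adjusted p = 2.82e-05), Gp5 (-0.68, adjusted p = 3.60e-07) and Itga2b (-0.49, adjusted p = 3.32e-05) were the genes called lower under median-of-ratios scaling as well, where 45.9% of all tested genes were. Vwf changed by -0.51 (adjusted p = 2.77e-04) and lost its call there. Gp1bb (0.05), Ppbp (0.01), Gp9 (-0.05) and Tubb1 (0.21) were called lower on the deposited scale and had a positive sign under median-of-ratios scaling, and Selp (0.35, adjusted p = 0.0756) was not called. The count of 8 fell without either WT HSPC or either neutrophil library and rose without either Npm1c library. Shares of all tested genes in these fits are not given here.

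Because a ratio of 2 genes within a library does not depend on the library total, the balance among the 10 genes was compared directly. The ratio of Pf4 to Ppbp was 1.22 and 1.16 in double mutant HSPC, 0.414 and 0.534 in Flt3-ITD HSPC, 0.743 and 0.755 in Npm1c HSPC, 0.231 and 0.253 in WT neutrophils, and 0.525 and 0.542 in WT HSPC. Of these neighbouring chemokine genes, Ppbp was thus the lower in double mutant HSPC relative to the WT HSPC balance, and Pf4 the lower in neutrophils, by more than the gap between replicates. Tubb1 over Itga2b was 1.59 and 1.65 in double mutant HSPC, 3.20 and 4.0 in Flt3-ITD HSPC, 2.21 and 1.93 in Npm1c HSPC, 6.47 and 6.40 in WT neutrophils, and 3.72 and 3.94 in WT HSPC. Flt3-ITD HSPC overlapped WT HSPC in this ratio, and the other groups did not. Thbs1 over Vwf was 5.31 and 5.26 in double mutant HSPC, 8.77 and 9.51 in Flt3-ITD HSPC, 3.31 and 3.90 in Npm1c HSPC, 36.6 and 39.4 in WT neutrophils, and 6.75 and 6.73 in WT HSPC. Gp5 over Gp9 was 1.18 and 1.14 in double mutant HSPC, 1.5 and 1.95 in Flt3-ITD HSPC, 1.94 and 2.42 in Npm1c HSPC, 0.962 and 1.06 in WT neutrophils, and 1.62 and 1.55 in WT HSPC. Each ratio is compared between groups only, since its size depends on the gene lengths used. The ratios show unequal change between genes, and no test was made of them.

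**Figure D3:**
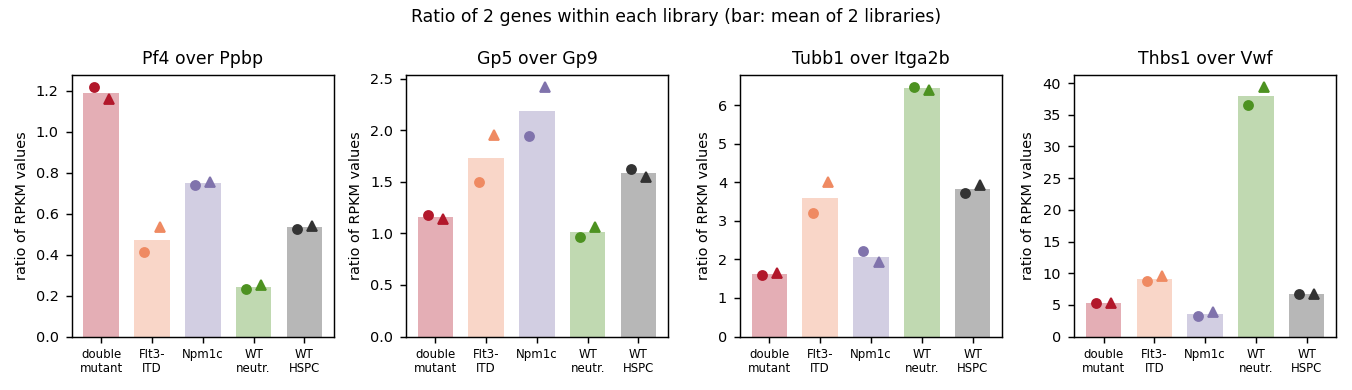
Ratio of the RPKM values of 2 genes within each library (vertical axes, from 0), for double mutant, Flt3-ITD and Npm1c HSPC, WT neutrophils and WT HSPC. Bars are means of 2 libraries, circles replicate 1 and triangles replicate 2. Pf4 over Ppbp is highest in the double mutant libraries, at 1.22 and 1.16, and Thbs1 over Vwf is highest in neutrophils.

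Over the 8 HSPC libraries the Pearson correlations of the 10 genes with their mean standardized level were 0.877 (Thbs1) to 0.996 (Gp9). Each gene is part of that mean, which raises these values. Between pairs of the 10 genes r ran from 0.746 (Vwf and Thbs1) to 0.996 (Pf4 and Vwf). The libraries fall into groups with 2 members each, so this describes the group differences above. Outside the 10, the genes most like that mean profile were Prkca (r = 0.997), Fhl1 (0.996), Itga6 (0.996), Rab27b (0.995), Sdpr (0.994) and Ache (0.994), over 8 libraries. Rab27b encodes a GTPase of platelet granule secretion and Itga6 a laminin receptor chain of platelets and stem cells. Itga6 was at 2.62 and 2.58 RPKM in double mutant HSPC, 6.38 and 6.08 in Flt3-ITD HSPC, 7.46 and 5.37 in Npm1c HSPC, and 9.49 and 9.08 in WT HSPC.

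Other megakaryocyte and platelet genes were taken from 6 lists holding 122 symbols, of which 117 were found and 104 tested in the HSPC fit. In double mutant against WT HSPC, 26 were higher, 60 lower and 18 not called, with a median of -0.33 relative to the median gene. On the deposited scale 60 of 104 lower is close to the 58.9% of all tested genes called lower. Likewise 26 higher is close to the 23.9% called higher. On that scale the counts over the lists together do not stand apart from the background. With median-of-ratios scaling 53 were lower and 40 higher, where 40.3% and 37.3% of all tested genes were. The shares on the deposited scale are the background of each list below. Of 14 receptors and partners at the platelet surface 10 were lower and 4 higher, against 58.9% and 23.9% of all tested genes, with a median of -0.96. Gp1ba, the alpha chain of glycoprotein Ib that completes the receptor of Gp1bb, Gp9 and Gp5, was at 0.859 and 0.792 RPKM in double mutant HSPC and 6.01 and 5.42 in WT HSPC (log2 change -1.89 relative to the median gene). Itgb3, the integrin partner of Itga2b, was at 2.13 and 2.30 RPKM in double mutant HSPC and 16.7 and 15.7 in WT HSPC (-2.28). Cd36, a scavenger receptor that monocytes share with platelets, was the other way round at 17.2 and 16.9 RPKM in double mutant HSPC and 0.891 and 0.844 in WT HSPC (4.02).

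Among 11 eicosanoid and metabolic enzymes, 9 were lower and 1 higher, with a median of -1.26, the lowest of the 6 lists. Car2, a carbonic anhydrase also of red cells, fell by 1.09 and Aldh1a1 by 1.31, while Itpr1, a calcium channel of internal stores, rose by 1.66 relative to the median gene. Of 20 transcription factors 13 were lower and 3 higher, a share of lower genes near the background, with a median of -0.58. Gfi1b, a repressor needed for megakaryocyte and red cell formation, was at 7.63 and 7.43 RPKM in double mutant HSPC and 40.1 and 43.2 in WT HSPC. Gata1 was at 21.4 and 21.1 RPKM in double mutant HSPC and 61.0 and 64.1 in WT HSPC. Relative to the median gene, Gfi1b fell by 2.05, Gata1 by 1.20 and Ldb1, a bridging partner of GATA1 and TAL1, by 0.89.

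Granule cargo and secretion genes numbered 21, of which 13 were lower and 3 higher, again near the 58.9% of all tested genes called lower, with a median of -0.43. Mmrn1, which encodes the alpha granule protein multimerin 1, was at 0.350 and 0.363 RPKM in double mutant HSPC and 5.58 and 5.54 in WT HSPC (-2.49). F13a1, the coagulation factor XIII A chain, also a monocyte marker, changed by -2.45, and Slc18a2, the transporter that loads serotonin into dense granules, by -1.33. Agonist receptors and signalling genes were mixed, with 8 of 17 lower and 5 higher on the deposited scale and a median of 0.25, of the opposite sign because it is taken relative to the median gene. Under median-of-ratios scaling 9 of the 17 were higher and 7 lower, where 37.3% and 40.3% of all tested genes were. Among the lower genes, the ATP receptor gene P2rx1 was at 0.481 and 0.553 RPKM in double mutant HSPC and 3.11 and 3.03 in WT HSPC (-1.48). The thromboxane receptor gene Tbxa2r changed by -0.91.

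The cytoskeleton list had the highest median, 0.64, with 10 of 21 genes higher and 7 lower in double mutant HSPC. Tubb2a, a tubulin made in many cells, was at 64.7 and 64.0 RPKM in double mutant HSPC and 24.5 and 26.3 in WT HSPC (1.66), opposite in direction to Tubb1. Myl9, a myosin light chain, changed by -2.15 and Vcl, which encodes vinculin, by -0.69. Many genes of this list are used by most cells. In Flt3-ITD HSPC 1 of the 104 list genes was higher and 59 lower, where 31.3% of all tested genes were called lower, and in Npm1c HSPC 3 were higher and 73 lower, where 58.1% were. With libraries scaled by their median ratio, Flt3-ITD HSPC had 2 of them higher and 28 lower, Npm1c HSPC 7 higher and 42 lower, and double mutant HSPC 40 higher and 53 lower. The shares of all tested genes called lower under that scaling were 9.65% in Flt3-ITD HSPC, 20.1% in Npm1c HSPC and 40.3% in double mutant HSPC.

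**Figure D4:**
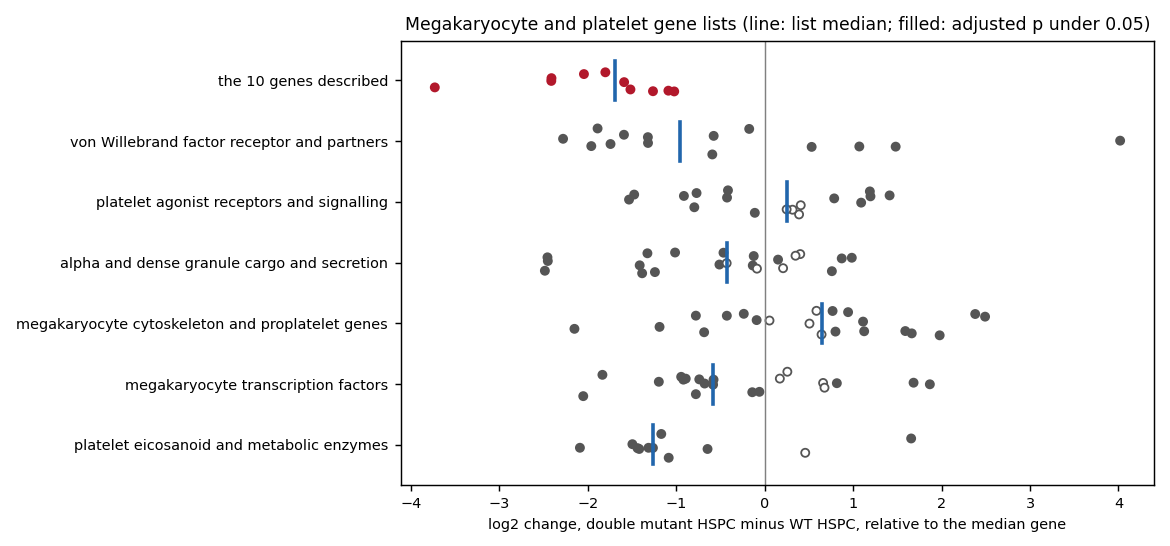
Log2 change in double mutant HSPC minus WT HSPC, relative to the median tested gene (horizontal axis), for the 10 genes described and for 6 lists of other megakaryocyte and platelet genes. Each point is a gene, filled where the adjusted p was under 0.05, and the vertical lines are list medians. The 10 genes have a median of -1.70, and the lists run from -1.26 for the enzymes to 0.64 for the cytoskeleton genes.

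Markers of other cell types moved between the groups as well, and their part in the results was not tested. Over 18 endothelial markers, all found, the summed RPKM was 8.45 to 8.64 in double mutant HSPC, 14.96 to 14.98 in Flt3-ITD HSPC, 13.6 to 14.5 in Npm1c HSPC, 3.52 to 3.62 in WT neutrophils, and 19.65 to 19.73 in WT HSPC. Cldn5 and Sox17 were at 0 in both double mutant libraries, Sox17 in both Flt3-ITD libraries, and Sox17 and Sox18 in both libraries of the Npm1c and of the neutrophil group. In WT HSPC these markers were at 0.115 RPKM or less. Of the 5 endothelial markers that could be tested, 4 were lower and 1 higher in double mutant against WT HSPC. The higher one was Flt1, at 1.01 and 1.03 RPKM in double mutant HSPC and 0.0667 and 0.0639 in WT HSPC. Among HSPC libraries Flt1 reached 1 RPKM only in the double mutant ones, so it was tested only because it was high there. Of the markers below the minimum, Kdr (0.709 and 0.675 RPKM against 0.380 and 0.410), Cdh5 and Stab2 were also higher in double mutant than in WT HSPC. Tek, Tie1, Emcn, Robo4, Cldn5, Ptprb, Mmrn2 and Sele were lower. Vwf, Selp and Thbs1 are also made by endothelium. Mast cell and basophil markers (12 of 12 found) summed to 12.1 to 15.4 RPKM in double mutant HSPC, 206 to 433 in Flt3-ITD HSPC, 299 to 404 in Npm1c HSPC, 575 to 586 in WT neutrophils, and 481 to 502 in WT HSPC, with Tpsb2 at 0 in both libraries of the double mutant and neutrophil groups. That list was thus low in the same HSPC group as the platelet genes. Erythroid markers (20 of 20 found), of the lineage closest to megakaryocytes, summed to 1778 to 1801 RPKM in double mutant HSPC, 1782 to 2091 in Flt3-ITD HSPC, 2176 to 2620 in Npm1c HSPC, 708 to 723 in WT neutrophils, and 2491 to 2580 in WT HSPC. That sum covers opposite moves, since 14 of the 20 were lower and 4 higher in double mutant against WT HSPC, with a median of -0.70 relative to the median gene. Klf1, an erythroid transcription factor, was at 53.2 and 50.2 RPKM in double mutant HSPC and 139 and 149 in WT HSPC, while the globin gene Hbb-bs was at 408 and 404 in double mutant HSPC and 105 and 112 in WT HSPC.

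Monocyte and macrophage markers (15 of 15 found) summed to 910 to 920 RPKM in double mutant HSPC, 221 to 355 in Flt3-ITD HSPC, 119 to 156 in Npm1c HSPC, 11000 to 11090 in WT neutrophils, and 239 to 242 in WT HSPC. Mpeg1 alone was at 580 and 578 RPKM in double mutant HSPC and 22.5 and 20.7 in WT HSPC, and without it the sums were 340 and 332 in double mutant HSPC and 217 and 221 in WT HSPC. Of the 15 markers, 11 were higher and 1, F13a1, lower in double mutant against WT HSPC. Stem cell markers (16 of 16 found) summed to 23.35 to 23.39 RPKM in double mutant HSPC, 36.5 to 50.8 in Flt3-ITD HSPC, 35.8 to 36.5 in Npm1c HSPC, 10.6 to 10.9 in WT neutrophils, and 48.0 to 48.3 in WT HSPC. This sum also covers opposite moves. Of the 7 that could be tested, 5 were lower, 1 higher and 1 not called in double mutant against WT HSPC. The higher one was Ly6a, at 5.16 and 5.09 RPKM in double mutant HSPC and 1.88 and 1.95 in WT HSPC. Procr, below the minimum for testing, was also higher in double mutant HSPC. Stromal markers (14 of 14 found) summed to 1.68 to 1.83 RPKM in double mutant HSPC, with Lum at 0 in both, 3.49 to 7.55 in Flt3-ITD HSPC, 9.38 to 10.51 in Npm1c HSPC, 11.2 to 11.5 in WT neutrophils, and 13.5 to 14.0 in WT HSPC.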

How the data were processed

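Per the labels' protocols, total RNA of lineage-depleted HSPC and of neutrophils was freed of ribosomal RNA and converted to directional libraries. The submitters' processing notes name STAR 2.4.0, HTSeq, DiffBind and mm10. The annotation, the use of strand in counting and the handling of shared reads are unknown from the labels. RPKM values, a table for each library, were deposited by the authors, so reads outside the listed genes that enlarge a library lower all its values.

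Whole reads were recovered from the RPKM steps for all 16655 genes above 0 in at least 2 libraries (tolerance 0.02) and served to describe depth. Tests used limma 3.58.1 in R 4.3.3. RPKM was taken as log2(RPKM + 0.5), the empirical Bayes step had a trend, and Benjamini-Hochberg adjustment at 0.05 ran over all genes that reached 1 RPKM in 2 of the libraries fitted. The 6 HSPC comparisons, the interaction among them, were fitted on 8 libraries (9702 genes) and the neutrophil comparison on 10 (10174 genes). All 10 genes passed the minimum. In the HSPC fit Selp did so only through both WT HSPC libraries (2.18 and 2.13 RPKM) and Npm1c replicate 1 (1.14). Its lower calls against WT HSPC are thus those of a gene admitted mainly through the group where it is high. The scripts were tested on simulated data. Alternatives were another pseudocount, no filter, 3 other scalings (listed-gene sum, median of ratios, quantile), a replicate block, a Y-linked term, library weights, other sets of libraries in the fit, and leaving out each library.

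Replicates differed by more than sampling noise in every group, although the median chi-square of double mutant HSPC (0.554) and WT neutrophils (0.671) came near the 0.455 of sampling alone. It was 4.74 in Flt3-ITD HSPC, 1.83 in Npm1c HSPC and 1.14 in WT HSPC. The fit shares a spread per gene over all groups, so the p-values do not follow these differences between groups. The labels call the replicates biological without naming animals, so p-values measure the spread between these libraries. The labels do not say that a replicate number pairs samples, and deviations of same-numbered libraries correlated at -0.12 to 0.03, so samples were not paired.

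The 10 genes and all lists were chosen with earlier results of these data known. Named genes were the 10, up to 3 genes per list and comparison with the smallest adjusted p, and the 6 genes most correlated with the mean profile. Of the lists' named genes, those of the double mutant comparison with WT HSPC are given, except a gene that is not reported here. Positions are from GENCODE M21 on GRCm38 and promoters from RefSeq. Python 3.11.15, pandas 2.3.3, NumPy 2.4.6 and SciPy 1.17.1 handled the tables, and matplotlib 3.10.9 made the figures.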

Additional observations from a re-analysis of the deposited data

Results flagged for a closer look

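The effect of Flt3-ITD differed with and without the Npm1c allele for 4 of the 10 genes, by limma's test of the interaction on the deposited log2(RPKM + 0.5) scale. Over all tested genes the interaction was lower for 27.6% and higher for 39.2%. It was -1.70 for Tubb1 (adjusted p = 0.0014), -1.543 for Gp5 (adjusted p = 4.80e-05), -1.394 for Itga2b (adjusted p = 8.88e-04) and -1.115 for Ppbp (adjusted p = 0.0232). Against Npm1c HSPC, the double mutant changes on that scale were -2.64 for Tubb1, -2.15 for Gp5, -2.21 for Itga2b and -1.83 for Ppbp. The corresponding changes of Flt3-ITD HSPC against WT HSPC were -0.94 for Tubb1, -0.61 for Gp5, -0.82 for Itga2b and -0.72 for Ppbp. The 4 values share all 8 HSPC libraries, and leaving out either WT HSPC or either double mutant library ended the call for Ppbp.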

How the results depend on the processing

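None of the 10 genes lost its lower call in double mutant against WT HSPC in any alternative. With all libraries 10 were called lower against Npm1c HSPC and 9 against Flt3-ITD HSPC, where 43.0% and 48.8% of all tested genes were. Some of these calls changed when single libraries were left out. In Npm1c against WT HSPC the count of 6 became 3 under median-of-ratios scaling and 3 under quantile normalization. The shares of all tested genes called lower were 20.1% and 16.6%, against 58.1%. Without single libraries the count fell or rose, depending on the library. For Flt3-ITD against WT HSPC the count of 8 became 3 under median-of-ratios scaling and 4 under quantile normalization (9.65% and 10.1%, against 31.3%). It also fell with library weights, and fell or rose without single libraries. In neutrophils against WT HSPC the count of 8 lower became 3 under median-of-ratios scaling and 5 under quantile normalization (45.9% and 52.7%, against 62.8%). Without single libraries it fell or rose. The interaction was lower for 4 genes and higher for 0, where 27.6% and 39.2% of all tested genes were. Its calls changed without single libraries, some of them to higher. Shares of all tested genes with library weights or without single libraries are not given here, so shifts there cannot be set against the background. The cause of these shifts was not tested.

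With a replicate block, whose pairing the data do not show, the counts were 6 for Npm1c, 8 for Flt3-ITD and 10 for double mutant against WT HSPC, 10 for double mutant against either single mutant, 4 for the interaction and 8 lower and 1 higher for neutrophils. The block added Ppbp and dropped Thbs1 in Flt3-ITD HSPC and added Vwf in double mutant against Flt3-ITD HSPC. Shares of all tested genes under that block are not given here.

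Signs turned as follows, on the scale of each fit. In Npm1c against WT HSPC, Gp1bb was 0.009 under median-of-ratios scaling, 0.04 under quantile normalization and -0.63 to 0.13 without single libraries, and Gp5 was 0.057 and 0.036 under those scalings. Without single libraries the interaction ran from -0.66 to 0.11 for Pf4, -0.46 to 0.26 for Vwf, -0.30 to 0.26 for Thbs1 and -0.18 to 0.45 for Selp. Selp was 0.14 with all libraries, -0.48 with a pseudocount of 0.1, -0.045 under median-of-ratios scaling, -0.39 under quantile normalization and -0.17 with a Y-linked term. In neutrophils against WT HSPC under median-of-ratios scaling, Gp1bb was 0.10, Gp9 0.072, Ppbp 0.17, Selp 0.34 and Tubb1 0.36, and Selp was 0.18 under quantile normalization.

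Levels and changes rest on 2 libraries a group and on RPKM totals that include reads outside the listed genes. The lowest read number was 27, for Selp in double mutant HSPC.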
